A study of Hevea brasiliensis with 21 samples.

Results

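CL104Contig15 and CL104Contig16 are contigs of the rubber tree latex transcriptome whose best protein match is a putative histidine-containing phosphotransfer protein of castor bean (Ricinus communis), and both carry the gene ontology terms for phosphorelay signal transduction and signal transducer activity. They are 2 of the 86941 contigs counted in 21 latex libraries of Hevea brasiliensis. Both were chosen by their annotation and with read pair counts of these libraries known. The counts behind the choice were taken to be those of clone PB260, where the contigs differed between ethephon-treated trees with slight Tapping Panel Dryness and control trees. The rule itself names no contrast and lists all 21 libraries, so the PB217 counts were also in view. The PB260 values are therefore given as a description, and tests were run within clone PB217, whose independence of the choice rests on that reading. Latex is the cytoplasm that laticifers, the rubber-producing vessels of the bark, release when the bark is tapped. Ethephon is a compound that releases ethylene in the tissue and is applied to stimulate latex flow, and Tapping Panel Dryness (TPD) is the stopping of that flow along the tapping cut.

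Cytokinin signalling runs through a phosphorelay that is best known from Arabidopsis. Membrane histidine kinases bind the hormone and phosphorylate themselves, histidine phosphotransfer proteins take over the phosphoryl group and carry it between cytosol and nucleus, and response regulators in the nucleus receive it, the type-B regulators acting as transcription factors and the type-A regulators as negative feedback. The phosphotransfer proteins are the shared step of this relay, because they accept the group from several receptors and pass it to many regulators.

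The libraries formed 7 groups of 3. In clone PB260, there were ethephon-treated trees with severe TPD, ethephon-treated trees with slight TPD, and control trees that received no ethephon and also had only slight TPD. All 9 were tapped for 36 months, and the treated trees had 12 ethephon applications a year. In clone PB217, the titles gave ethephon-coded diseased trees at month 36 (the PB217 TPD trees), trees without ethephon at month 36, ethephon-coded trees at month 1, and trees without ethephon at month 1. The ethephon titles of PB217 carried the same 12 at both months. The article behind the data does not describe the PB217 trees, so their title codes were read as those of PB260, and the sample records themselves call every library untreated. All trees were labelled wild type. The replicates of PB260 were separate trees, while for PB217 nothing beyond the replicate number and the stated biological replication describes them.

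The libraries held 16102321 to 23126417 counted read pairs. In PB260 and in PB217 at month 36, the ethephon-treated trees were harvested on another day than the control trees, so ethephon and harvest day cannot be told apart there. PB217 at month 1 and the severe against the slight TPD trees of PB260 were each harvested on a shared day. PB217 also carried another tapping code than PB260, and the reference transcriptome comes from PB260, so clone, tapping and fit of the reads to the reference cannot be told apart. The share of reads mapped was 95.4 to 97.7% in PB217 and 95.1 to 97.6% in PB260. The summed level of 5 contigs of photosystem II, a marker of green bark cells, lay between 0.356 and 1.90 CPM in every library. It was 1.29 to 1.90 CPM in the PB217 TPD trees and 0.461 to 0.624 CPM in the PB260 severe TPD trees, groups that are compared between clones. That difference was not tested. Defining laticifer genes were not among the annotated contigs used here, so the labelled tissue was not checked on them.

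CL104Contig16 was detected in every library and was the more abundant of the pair in all 21. Its levels are given as TMM-normalized CPM, that is, read pairs per 1000000 pairs of a library after scaling for its composition. In PB260 it stood at 47.5, 88.3 and 51.1 CPM in the severe TPD trees, at 27.4, 35.5 and 22.5 CPM in the slight TPD trees given ethephon, and at 103, 111 and 77.9 CPM in the control trees. Each slight TPD tree lay below each control tree, as for 21.7% of contigs in that contrast, and below each severe TPD tree, as for 8.96%. The range of the severe TPD trees overlapped with that of the controls.

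In PB217, CL104Contig16 stood at 52.3, 7.82 and 15 CPM in the TPD trees of month 36, against 44.8, 47.3 and 37.3 CPM in the trees without ethephon of that month. At month 1 it stood at 40.3, 47 and 37.1 CPM in the ethephon trees, against 31.6, 32.7 and 31.4 CPM in the trees without ethephon. One TPD tree, replicate 1, was above every other PB217 library, while the other 2 TPD trees were the lowest of all 21 libraries.

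CL104Contig15 was a minor contig with a wider range. In PB260 it stood at 2.73, 8.04 and 3.03 CPM in the severe TPD trees, at 2.98, 5.32 and 1.98 CPM in the slight TPD trees given ethephon, and at 10.2, 20.4 and 9.27 CPM in the control trees. All 6 ethephon-treated trees were below the 3 controls, which held for 16.6% of contigs in severe TPD trees against controls and for 21.7% in slight TPD trees against controls, and the severe and slight TPD trees overlapped. In PB217 at month 36 it stood at 6.65, 0.146 and 0.0996 CPM in the TPD trees, against 2.66, 3.47 and 1.35 CPM in the trees without ethephon. At month 1 it was near 0, with 1, 0 and 1 read pairs in the ethephon trees against 0, 6 and 5 read pairs in the trees without ethephon. Reads of PB217 trees thus did reach this contig at month 36, up to 144 pairs in TPD replicate 1.

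**Figure D1:**
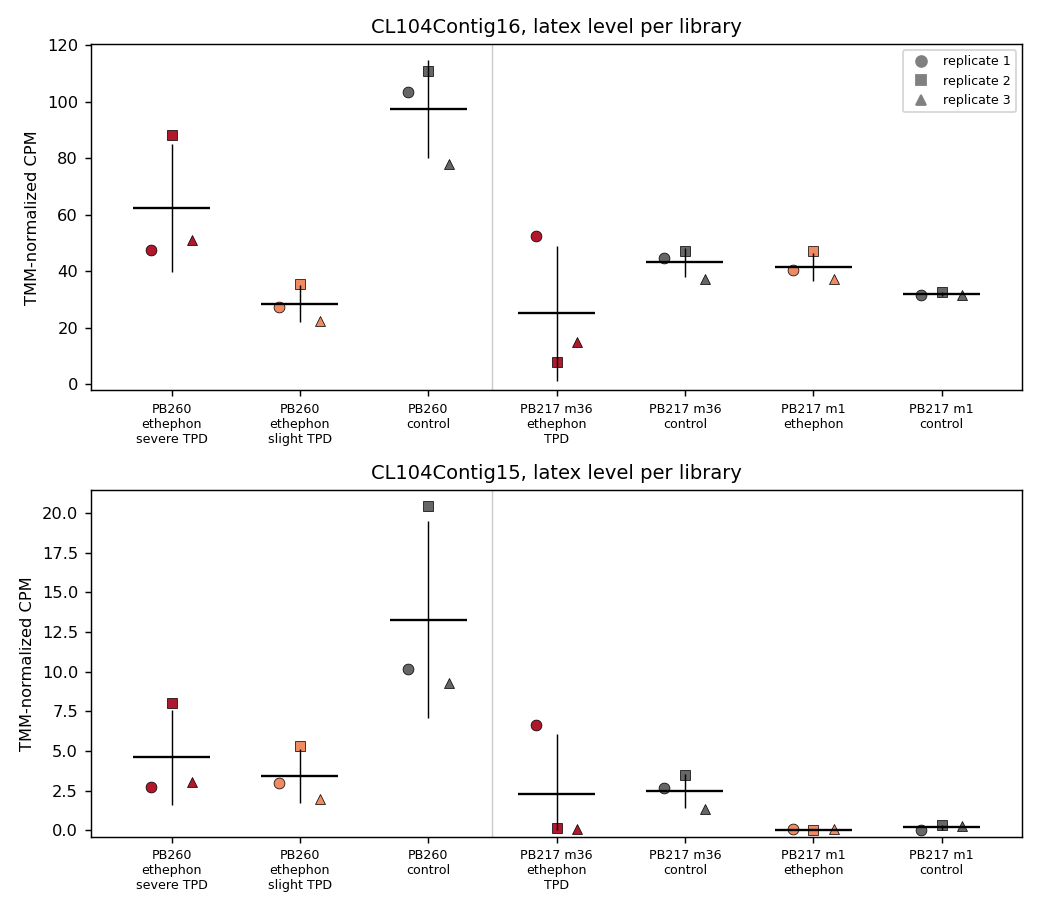
TMM-normalized CPM (y axis) of CL104Contig16 (top) and CL104Contig15 (bottom) in each of the 21 libraries, by group (m1 and m36 are months 1 and 36); points are libraries, horizontal lines group means and vertical lines 1 SD with n = 3, drawn no lower than 0. Both contigs were highest in the PB260 controls (97.4 and 13.3 CPM on average), and 1 PB217 TPD library stood far above the other 2.

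Ordered from the lowest to the highest mean level, CL104Contig16 ran through the PB217 TPD trees (25.0 ± 23.9 CPM, SD, n = 3 in each group), the PB260 slight TPD trees given ethephon (28.5 ± 6.56), the PB217 trees of month 1 (41.4 ± 5.07 with ethephon, above 31.9 ± 0.707 without), the PB217 trees without ethephon at month 36 (43.1 ± 5.19) and the PB260 severe TPD trees (62.3 ± 22.6) to the PB260 controls (97.4 ± 17.3). Among neighbours in this order, the ranges of the 3 lowest means overlapped, as did those of the groups at 41.4 and 43.1 CPM and those of the severe TPD trees and the controls of PB260. The ranges of the severe TPD trees and the PB217 trees of month 36 without ethephon all but touched. The lowest severe TPD tree stood at 47.5 CPM and the highest of those PB217 trees at 47.3 CPM. The PB217 ethephon trees and their controls at month 1 did not overlap, as for 6.59% of contigs in that direction.

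For CL104Contig15 the order from the lowest was, at month 1, the PB217 trees with ethephon (0.0404 ± 0.0354 CPM, SD, n = 3 in each group) and without (0.190 ± 0.165), then the PB217 TPD trees (2.30 ± 3.77), the PB217 trees without ethephon at month 36 (2.49 ± 1.07), the PB260 slight TPD trees given ethephon (3.43 ± 1.71), the PB260 severe TPD trees (4.60 ± 2.98) and the PB260 controls (13.3 ± 6.19). The ranges of neighbours in this order overlapped except between the severe TPD trees and the controls of PB260. Per kilobase of contig, CL104Contig15 (480 bases) remained below CL104Contig16 (925 bases). The PB260 controls averaged 27.7 CPM per kilobase for CL104Contig15 and 105 CPM per kilobase for CL104Contig16.

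In PB260, slight TPD trees given ethephon had less of both contigs than control trees, the contrast on which they are taken to have been chosen. The log2 fold change was -1.76 ± 0.23 (SE) for CL104Contig16 and -1.95 ± 0.41 for CL104Contig15, estimated with edgeR from 3 trees a group and given without a test. Neither contig's groups overlapped, against 21.7% of contigs lower without overlap in this contrast, from which nothing is read. In bulk latex, fewer cells with the transcript and less transcript per cell cannot be told apart.

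Severe TPD trees had more CL104Contig16 than slight TPD trees under the same ethephon treatment and harvest day. The log2 fold change was 1.08 ± 0.26 (SE, n = 3 each), and the groups did not overlap, which held in the higher direction for 8.96% of contigs in this contrast. CL104Contig15 had a log2 fold change of 0.36 ± 0.49 there, and this became -0.25 without severe TPD replicate 2, the tree with the highest value. Set against controls, the severe TPD trees had log2 fold changes of -0.65 ± 0.26 for CL104Contig16 and -1.54 ± 0.45 for CL104Contig15. These contrasts share their slight TPD or control libraries with the one that singled the contigs out, so they too are descriptions. CL104Contig16 was thus nearer to the control level in severe than in slight TPD trees, while CL104Contig15 was at a low level in both.

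**Figure D2:**
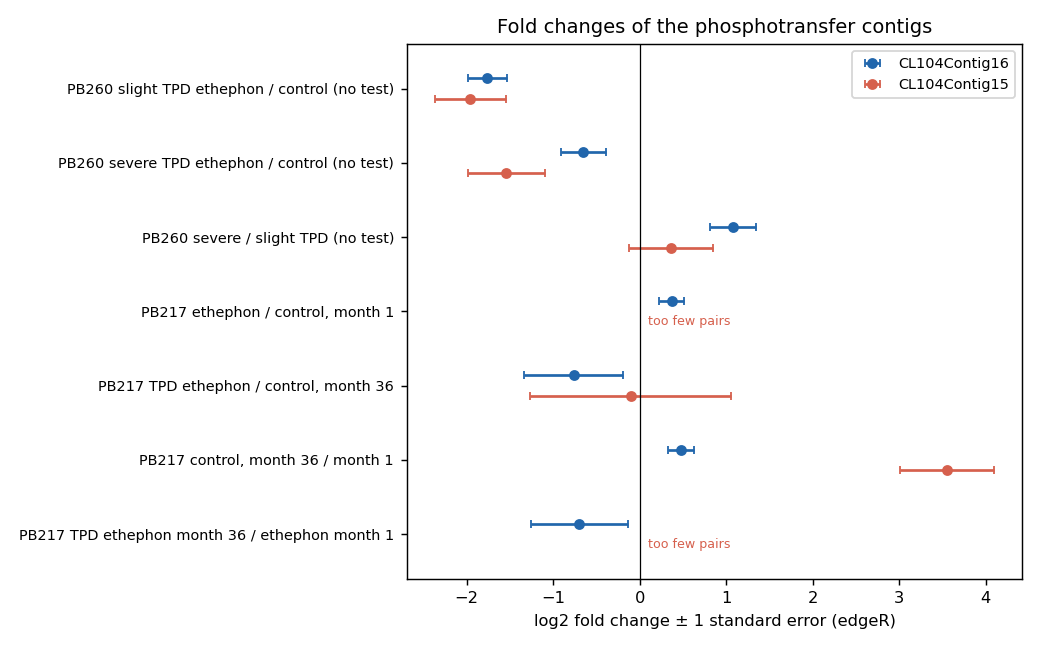
Log2 fold changes (x axis) of both contigs in 7 comparisons (rows), the first-named group over the second; points are edgeR estimates and bars 1 standard error, from 3 libraries a group. CL104Contig16 was -1.76 in PB260 slight TPD trees given ethephon against controls but 0.37 in PB217 at month 1, and CL104Contig15 reached 3.55 between months 36 and 1 of PB217 trees without ethephon.

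The PB217 trees at month 1 gave the contrast of ethephon with control that shares a harvest day and is taken not to have entered the choice of the contigs. CL104Contig16 was at 41.4 ± 5.07 CPM in ethephon trees and 31.9 ± 0.707 CPM in trees without ethephon (SD, n = 3 each). The log2 fold change was 0.37 ± 0.14 (SE; 95% interval 0.06 to 0.68), and it did not pass the test (adjusted p = 0.58, edgeR's quasi-likelihood test with Benjamini-Hochberg adjustment over 27226 contigs; 0.413 to 0.9999 when a library was left out). The difference pointed upward in 3 of 3 ethephon trees, without overlap, as 6.59% of all tested contigs did. The groups did overlap when pairs were divided by library totals alone. By this test 0% of the contigs were called in the comparison (0 of 27226), while the unadjusted p was under 0.05 for 1198 contigs that were higher and 1023 that were lower. DESeq2 called 49 higher and 6 lower, and edgeR's exact test 72 higher and 16 lower.

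CL104Contig15 did not pass the count filter at month 1. It was not called with no filter (log2 fold change -2.07, adjusted p = 0.70, edgeR's quasi-likelihood test) or with all PB217 libraries in 1 fit (-2.10, adjusted p = 0.98). The 3 ethephon libraries held 2 pairs in all and the 3 libraries without ethephon 11 pairs, a ratio of 0.203 after scaling, with an exact Poisson interval of 0.0219 to 0.930 that covers counting error only and not the spread between trees.

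At month 36, the PB217 TPD trees against the trees without ethephon gave a log2 fold change of -0.76 ± 0.58 for CL104Contig16 (95% interval -2.07 to 0.54, adjusted p = 0.389, edgeR's quasi-likelihood test) and of -0.10 ± 1.16 for CL104Contig15 (95% interval -2.74 to 2.53, adjusted p = 0.962). Neither passed the test in a comparison that called 8.94% of 29124 contigs, and the groups overlapped for both. The intervals include changes of several-fold in either direction for CL104Contig15, so the estimate does not show that the groups were alike. TPD replicate 1 decided these values. Without it, CL104Contig16 fell (log2 fold change -1.90, adjusted p = 0.0409, edgeR's quasi-likelihood test) and CL104Contig15 fell (-4.21, adjusted p = 0.0396). That setting called 316 contigs higher and 249 lower, of 27733 tested. The library was singled out by these same values, so the calls without it are descriptions. Over all contigs replicate 1 did not stand apart, its mean correlation with the other TPD libraries being 0.981, against 0.972 and 0.978 for replicates 2 and 3. Replicate 2, with the lowest CL104Contig16 level, had the lowest correlation with its own group of all 21 libraries. Its mean correlation with the other PB217 groups, 0.937, was also the lowest of the PB217 libraries.

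In PB217 trees without ethephon, CL104Contig15 averaged 2.49 ± 1.07 CPM at month 36 and 0.190 ± 0.165 CPM at month 1 (SD, n = 3 each). The log2 fold change was 3.55 ± 0.55 (95% interval 2.36 to 4.75, adjusted p = 0.000587, edgeR's quasi-likelihood test). The contig passed the count filter only through the month 36 libraries, at 2.35, 2.96 and 1.09 CPM by library totals. The month 1 libraries held 0, 0.259 and 0.250 CPM on that measure. It could thus enter this test only by being high at month 36, and the call is not read as support for a rise. The call did not hold in 1 fit of all 12 PB217 libraries, where the value was 3.57 with an adjusted p of 0.0555 (edgeR). It was kept when any 1 of the 3 month 1 libraries was left out (adjusted p 0.00175 to 0.00308, edgeR's quasi-likelihood test). These fits share the filter, so they add no support. The contig did not pass the count filter without a month 36 library. CL104Contig16 averaged 43.1 ± 5.19 CPM at month 36 against 31.9 ± 0.707 CPM at month 1, a log2 fold change of 0.48 ± 0.15 (95% interval 0.15 to 0.80, adjusted p = 0.0274, edgeR's quasi-likelihood test). That call was lost without any 1 of 5 of the 6 libraries (adjusted p 0.0521 to 0.0914), and the direction stayed upward. Both contigs were thus called higher, CL104Contig15 only as a contig that its month 36 level let through the filter. The comparison called 18.1% of 27884 contigs higher, 35.3% in either direction. The 2 months were sampled on different days from different trees, so time of tapping, day and tree cannot be told apart.

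Among the ethephon-coded PB217 trees, TPD trees at month 36 against trees at month 1 gave a log2 fold change of -0.70 ± 0.56 for CL104Contig16 (95% interval -1.96 to 0.57, adjusted p = 0.386, edgeR's quasi-likelihood test), in a comparison that called 24.1% of 28798 contigs. Without TPD replicate 1 the value was -1.81 (adjusted p = 0.0126, edgeR's quasi-likelihood test). That setting called 1903 contigs higher and 2130 lower, of 27006 tested, and the library was singled out by its values. CL104Contig15 did not pass the count filter in the full comparison. Its 3 TPD libraries held 144, 4 and 2 pairs, against 1, 0 and 1 pairs in the ethephon libraries of month 1, so that 1 tree carried nearly all of the signal. It was called with no filter (log2 fold change 5.49, adjusted p = 1.4e-13, edgeR's quasi-likelihood test) and with all PB217 libraries in 1 fit (5.53, adjusted p = 0.0209), where 144 of the 150 pairs of the TPD trees were in this 1 library.

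Whether the ethephon response differed between month 36, with TPD, and month 1 was tested over all 12 PB217 libraries. The difference was -1.17 ± 0.65 on the log2 scale for CL104Contig16 (95% interval -2.58 to 0.23, adjusted p = 0.26, edgeR's quasi-likelihood test) and 1.96 ± 2.52 for CL104Contig15 (adjusted p = 0.642). Neither passed, in a test that called 6.58% of 30609 contigs. Without TPD replicate 1 the difference was -2.32 for CL104Contig16 (adjusted p = 0.012, edgeR's quasi-likelihood test) and -2.16 for CL104Contig15 (adjusted p = 0.423), so this library turned the direction of the minor contig. That setting called 623 contigs higher and 1050 lower, of 29770 tested, and the library was singled out by its values.

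PB217 trees without ethephon had less of both contigs than PB260 controls at month 36. The log2 fold changes, PB217 over PB260, were -2.39 ± 0.39 for CL104Contig15 and -1.16 ± 0.19 for CL104Contig16 (SE, n = 3 each), given without a test because the PB260 controls are taken to have entered the choice of the contigs. The groups did not overlap for either, as for 23.2% of contigs in the lower direction. Between the TPD trees of PB217 and the severe TPD trees of PB260, the values were -0.98 ± 1.15 for CL104Contig15 and -1.30 ± 0.60 for CL104Contig16, with overlapping groups. Without PB217 TPD replicate 1 they were -5.06 for CL104Contig15 and -2.39 for CL104Contig16.

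The share of CL104Contig15 among the pairs of both contigs is a ratio within a library and does not depend on scaling. It was 5.44, 8.35 and 5.60% in the PB260 severe TPD trees, 9.83, 13.0 and 8.08% in the slight TPD trees given ethephon, and 8.95, 15.5 and 10.6% in the controls. It averaged 6.46 ± 1.64% in the severe TPD trees, 10.3 ± 2.51% in the slight TPD trees given ethephon and 11.7 ± 3.43% in the controls (SD, n = 3 each), with overlap between the slight TPD trees and both other groups. In PB217 at month 36 it was 11.3, 1.83 and 0.662% in the TPD trees, against 5.61, 6.83 and 3.49% in the trees without ethephon. TPD replicate 1, with an exact Clopper-Pearson 95% interval of 9.59 to 13.1%, lay among the values of the PB260 controls and of the PB260 slight TPD trees given ethephon.

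At month 1 of PB217 the share was 0.136, 0 and 0.179% in the ethephon trees, where 0 of 580 pairs allows a share of up to 0.517% at a limit of 3 pairs and 0.634% by the exact interval, and 0, 0.916 and 0.843% in the trees without ethephon, where 0 of 392 pairs allows up to 0.765% and 0.937% on the same measures. All 6 month 1 values lay below every value of the month 36 trees without ethephon. The mean log2 ratio of CL104Contig15 to CL104Contig16 differed by 3.48 between months 36 and 1 in trees without ethephon and by 4.07 in ethephon-coded trees, each with an exact two-sided permutation p of 0.1, the smallest that 3 against 3 libraries can give (0.2 after adjustment over 4 comparisons). The difference was -1.55 for ethephon against control at month 1 (exact permutation p = 0.3, adjusted 0.4) and -0.96 for TPD trees against trees without ethephon at month 36 (exact permutation p = 0.5, adjusted 0.5).

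**Figure D3:**
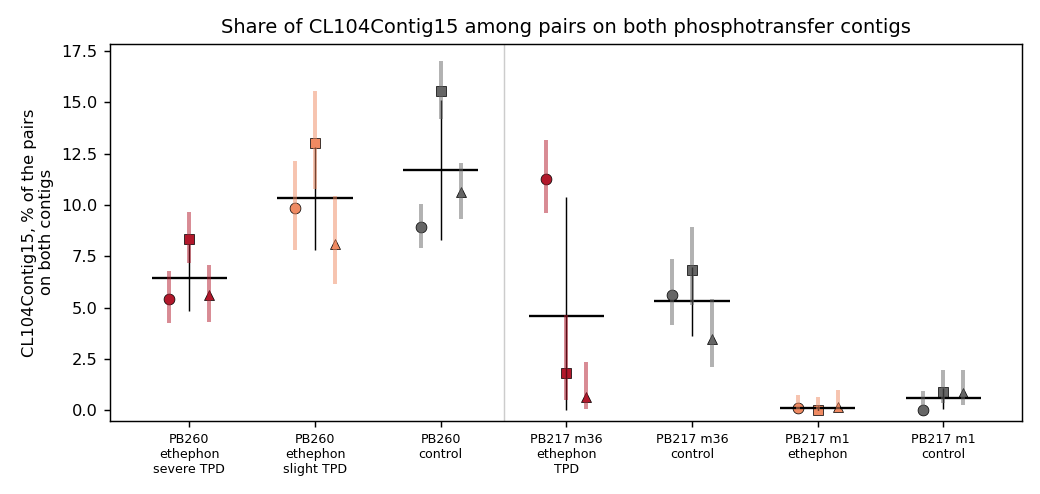
Share of CL104Contig15 (y axis, percent of the pairs counted on both contigs) in each library by group; points are libraries, coloured bars exact 95% intervals of counting, horizontal lines group means and thin vertical lines 1 SD with n = 3, drawn no lower than 0. The 6 PB217 libraries of month 1 lay at 0 to 0.916%, while the PB260 controls lay at 8.95 to 15.5%.

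Over the 21 libraries the contigs had a Pearson r of 0.716 and a Spearman rho of 0.68 between their log2(CPM + 1) levels, a description over libraries that share clone and group. Within PB260, r was 0.872 (9 libraries), and within PB217 it was 0.463 (12 libraries). The deviations of single libraries from their group means had an r of 0.909. PB217 TPD replicate 1 and PB260 severe TPD replicate 2 were the highest of their groups for both contigs, while PB217 ethephon replicate 2 of month 1 was the highest of its group for CL104Contig16 and held 0 pairs of CL104Contig15. Reads that matched several contigs equally well had been removed before counting, so stretches shared by the contigs of this family added nothing to any of them, and whether these contigs are separate genes, alleles or pieces of 1 transcript was not tested.

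The contig names place both in a group of 20 numbered contigs of CL104, of which 3 more, CL104Contig1, CL104Contig2 and CL104Contig11, match histidine phosphotransfer proteins. These 3 were close to 0, with at most 21 pairs in a library, and CL104Contig15 and CL104Contig16 held 96.0 to 100% of the pairs on the 5 phosphotransfer contigs. Summing the 5 contigs or the 2 members moved no call of CL104Contig16.

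A list of other contigs of the cytokinin phosphorelay had low counts in latex. It held 11 further contigs, namely the 3 above, 3 phosphotransfer contigs of group CL10214, 3 histidine kinases, which include receptors of the relay, 1 response regulator and 1 ethylene-responsive factor matching the cytokinin response factor CRF4. Only CL10214Contig1 had enough pairs to be tested in PB217. It averaged 1.13 ± 0.416 CPM in PB217 TPD trees and 1.06 ± 0.402 CPM in month 36 trees without ethephon (SD, n = 3 each), and 1.51 ± 0.501 CPM in ethephon trees and 1.18 ± 0.390 CPM in trees without ethephon at month 1. It passed no test in the 5 PB217 comparisons, with log2 fold changes of 0.39 at month 1 (ethephon over control) and 0.11 at month 36 (TPD over control). The annotation held here covers 2148 contigs only, so other receptors and response regulators of latex may be among the contigs without one.

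A list of 4 contigs annotated with phosphorelay sensor kinase activity, whose neighbours in the assembly match blue-light receptors such as phototropin, held 1 contig that was called. CL1028Contig7 rose to 22.4 ± 9.70 CPM in PB217 TPD trees, against 9.85 ± 1.20 CPM in month 36 trees without ethephon (SD, n = 3 each; log2 fold change 1.21 ± 0.31 SE, adjusted p = 0.0449, edgeR's quasi-likelihood test). The comparison called 8.94% of 29124 contigs, and 0 contigs without control replicate 3, so the call does not hold there. CL1028Contig7 stood at 15.9, 33.5 and 17.7 CPM in the TPD libraries. In PB260 it was lower in ethephon-treated slight TPD trees than in controls, at 4.35 ± 1.23 against 7.67 ± 0.909 CPM. Of this list 2 contigs were tested at month 36 and 3 at month 1, where none was called.

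Among the other 15 contigs of group CL104, CL104Contig8 was called in 4 of the 5 PB217 tests. These 4 tests share libraries and called 8.94, 35.3, 24.1 and 6.58% of contigs. The best match of CL104Contig8 is a hypothetical protein of Jatropha curcas with no stated function. It stood at 31.2, 38.3 and 33.1 CPM in PB217 TPD trees, against 67.4, 81.9 and 68.8 CPM in month 36 trees without ethephon. TPD replicate 1 was the lowest of its 3 for this contig. CL104Contig8 fell in TPD trees against trees without ethephon at month 36 (log2 fold change -1.06 ± 0.19 SE, adjusted p = 0.0197, edgeR's quasi-likelihood test). That comparison called 0 contigs without control replicate 3, so the call does not hold there. CL104Contig8 was higher at month 36 than at month 1 in trees without ethephon (0.58 ± 0.15, adjusted p = 0.0103, edgeR's quasi-likelihood test). The response difference between months was -1.25 ± 0.22 (adjusted p = 0.0128), and in PB260 the slight TPD trees given ethephon had a log2 fold change of -0.88 ± 0.18 against controls.

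CL104Contig8 included, 6 of these 15 contigs were tested in the PB217 month 36 contrast, with CL104Contig8 the 1 that was lower, 0 higher and a median log2 fold change of -0.29, against 0.06 over all contigs tested. That contrast called 8.94% of 29124 contigs. In the PB217 contrast of months without ethephon, 5 were tested, with CL104Contig8 the 1 that was higher, 0 lower and a median of 0.11, against -0.02 over all contigs. That contrast called 35.3% of 27884 contigs, so nothing is read from these counts. CL104Contig9 was called higher in TPD trees at month 36 than in ethephon trees at month 1 (3.23 ± 0.890 against 1.34 ± 0.506 CPM, log2 fold change 1.29, adjusted p = 0.0327, edgeR's quasi-likelihood test), where CL104Contig8 was called lower (-0.67, adjusted p = 0.0354). That comparison called 24.1% of 28798 contigs, and 2364 to 7161 contigs when a library was left out. The calls of CL104Contig8 and CL104Contig9 had opposite signs there, and nothing more is read from them.

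**Figure D4:**
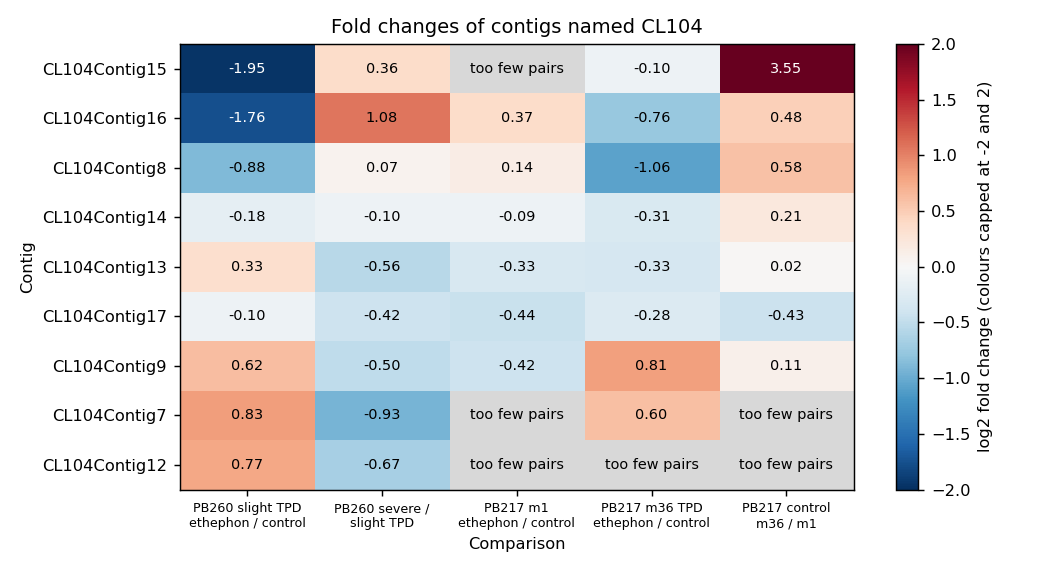
Log2 fold changes from edgeR, first-named group over second, of CL104Contig15, CL104Contig16 and the 7 other CL104 contigs with enough pairs (rows) in 5 comparisons (columns), 3 libraries a group; colours are capped at -2 and 2 and grey cells had too few pairs. CL104Contig8 was lower by a similar amount in both ethephon contrasts of month 36 (-0.88 in PB260 and -1.06 in PB217), while CL104Contig15 was -1.95 and -0.10.

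Likeness of pattern was measured as the Pearson correlation of log2(CPM + 1) over the 21 libraries, among 34212 other contigs. For CL104Contig16 the most alike were CL563Contig8 (r = 0.916), CL1Contig13089 (0.868), CL7627Contig2 (0.862), CL16227Contig1 (0.853) and CL1Contig17258 (0.853), none with an annotation held here. CL1Contig13089 was the most abundant of them, at 376 ± 12.9 CPM in PB260 severe TPD trees, 229 ± 66.9 CPM in slight TPD trees given ethephon and 572 ± 90.1 CPM in controls, the same order as CL104Contig16. In PB217 it stood at 193 ± 62.1 CPM in TPD trees against 351 ± 36.8 CPM in month 36 trees without ethephon, and at 339 ± 22.6 CPM in ethephon trees against 277 ± 33.8 CPM in trees without ethephon at month 1.

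Among the 316 contigs with an informative annotation, the one most like CL104Contig16 was CL104Contig15, at place 225 of all contigs, followed among plant matches by CL10019Contig1, a UDP-glucosyltransferase that transfers sugar to small molecules (r = 0.644), CL1040Contig1, a pentatricopeptide repeat protein (0.590), and CL10275Contig3, a protoporphyrinogen oxidase of tetrapyrrole synthesis (0.579).

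For CL104Contig15 the most alike were CL8671Contig2 (r = 0.936), CL1Contig8130 (0.924), CL1Contig7285 (0.921), CL5794Contig2 (0.918) and CL5419Contig4 (0.917), again without an annotation. CL1Contig7285 averaged 16.7 CPM in PB260 severe TPD trees, 12.2 CPM in slight TPD trees given ethephon and 22.3 CPM in controls, against 3.76 CPM in PB217 trees without ethephon at month 36 and 0.307 CPM in those at month 1. CL104Contig16 came at place 1576 of its list. Annotated plant matches were CL10218Contig2, an HIPL1 protein (0.865), CL1061Contig12, an enoyl-ACP reductase of fatty acid synthesis (0.817), and CL1076Contig7, subunit B-10 of the nuclear transcription factor Y (0.802). These contigs share libraries, depth and the split of the clones with the members.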

How the data were processed

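The authors sequenced stranded polyA libraries of latex as read pairs, trimmed them with the fastx toolkit, removed ribosomal reads with sortMeRNA, and mapped them with Bowtie2 in local mode on the PB260 reference transcriptome. The sample records also name TopHat2, and versions are not given in the sources used here. The deposited values are raw counts of pairs with both mates on 1 contig, after the authors removed reads with equal best hits (19.1 to 24.0% of reads); single mapped reads and contig length stand beside them. From these counts, comparisons were fitted with edgeR 4.0.16 in R 4.3.3 (TMM scaling, only contigs reaching 1 CPM in 3 or more libraries of the comparison, quasi-likelihood test, prior count 0.125, Benjamini-Hochberg adjustment over all contigs tested, called at an adjusted p under 0.05). The scripts were tested on simulated data. Libraries held 16102321 to 23126417 pairs, and intervals on pairs cover counting error only. No libraries held identical values. Of 21 libraries none was left out.

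Ratios used a pseudocount of 0.5 and an exact permutation test. Alternatives were DESeq2 1.42.0, other scalings, filters, samples, counting units and left-out libraries. The members and lists were chosen with earlier results of these data known. Named contigs were both members, the listed contigs described, and the 5 most correlated contigs per member, with 5 more among annotated ones, of which matches outside plants are not named. Contig sequences were not used here. P-values in PB217 measure the spread between these libraries, which may be partly technical.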

Additional observations from a re-analysis of the deposited data

Results flagged for a closer look

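The ethephon contrast of CL104Contig16 had opposite signs in PB217 at month 1 and in PB260 at month 36. Every PB217 ethephon tree at month 1 lay above every tree without ethephon (log2 fold change 0.37), as for 6.59% of contigs, but the change did not pass the test (adjusted p = 0.58, edgeR's quasi-likelihood test) and the groups overlapped with library totals alone. Every PB260 slight TPD tree given ethephon lay below every control (-1.76), as for 21.7% of contigs, so that the values differ by 2.13 on the log2 scale. The PB217 contrast at month 36, with TPD trees, had the sign of PB260 (-0.76), but its groups overlapped. It did not pass the test (adjusted p = 0.389, edgeR's quasi-likelihood test). TPD replicate 1 lay above every PB217 tree without ethephon of that month. The value was -1.90 without this library, which was singled out by these same values, so -1.90 is a description. The difference of 2.13 was not tested, because the PB260 libraries are taken to have entered the choice of the contigs. Clone, months of tapping, tapping code and harvest day also differ together between the contrasts.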

How the results depend on the processing

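The direction of CL104Contig16 was kept in every alternative. For its difference between months without ethephon, the call was lost with library totals alone (0.44), with all PB217 libraries in 1 fit (0.48), and without 5 of the 6 libraries (0.42 to 0.48), but not without month 36 control replicate 3 (0.59). For CL104Contig15 the same comparison gave 3.57 with all PB217 libraries in 1 fit, no longer called, and 3.15 to 3.94 without a month 1 library; without a month 36 library it did not pass the count filter. CL104Contig15 in TPD trees against trees without ethephon at month 36 turned to 0.33 with library totals alone, and leaving out a library gave -4.21 to 0.47, upward without TPD replicate 2 (0.47), TPD replicate 3 (0.45) or control replicate 2 (0.20). CL104Contig16 gave -1.90 to -0.33 there. Leaving out a library gave -1.81 to -0.22 for CL104Contig16 between ethephon months, -2.32 to -0.75 for its response difference, and -2.16 to 2.53 for that of CL104Contig15. Without a count filter CL104Contig16 was called between ethephon months (-0.74) and for its response difference (-1.22), the cause of which was not tested. Between clones, CL104Contig16 gave -1.56 with library totals alone in trees without ethephon, and without a library the TPD trees gave -5.06 to -0.33 for CL104Contig15 and -2.39 to -0.89 for CL104Contig16. In PB260, severe against slight TPD gave -0.25 to 0.82 for CL104Contig15 without a library, and the ratio of the contigs in slight TPD trees against controls gave -0.39 to 0.069 (upward without control replicate 2).

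With library totals alone the median of all contigs was 0.48 at month 36 (TPD over control, against 0.06 with TMM) and -0.14 for ethephon at month 1. At month 36, 5723 contigs were called higher and 721 lower, against 1314 higher and 1290 lower with TMM. Called contigs at month 1 (0) were 464 with no filter, 55 with DESeq2, 88 with edgeR's exact test and 0 to 2 without a library. TPD against control at month 36 (2604) called 6444 with library totals, 5792 with no filter, 4875 with DESeq2, 4665 with the exact test, 7024 with all PB217 libraries, and 0 (without control replicate 3) to 4611. Ethephon month 36 against month 1 (6943) called 10817 with library totals, 9445 of them higher, 10572 with all PB217 libraries, and 2364 to 7161 without a library. The response difference called 4923, 4522 and 3714 with library totals, no filter and DESeq2, and 410 to 5363 without a library. CL104Contig15 and its Spearman list shared 1 of 5 contigs, CL104Contig16 2 of 5.

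Equal replicate numbers mark no stated pairing, and same-numbered libraries did not deviate together throughout (correlations -0.455 to 0.468). The replicate 2 libraries of PB260 did. Their correlations were 0.468 (slight TPD and control), 0.344 (severe and slight TPD) and 0.199 (severe TPD and control). Against other numbers these were -0.19, -0.189 and -0.0805. Replicate 2 was also the highest of each PB260 group for both members. With the replicate number as a block, 6 contigs were called at month 1 and 4156 between ethephon months, and no call of the members changed (CL104Contig16 0.37, adjusted p = 0.697, at month 1 and 0.47, adjusted p = 0.0437, between months; CL104Contig15 3.55, adjusted p = 0.00106, edgeR). The block moved CL104Contig15 to -1.58 and CL104Contig16 to -1.20 in TPD trees against control at month 36, CL104Contig16 to -1.15 between ethephon months, and CL104Contig15 to -2.95 in TPD trees between clones. A pseudocount of 0 gives no ratio at month 1, where libraries held 0 pairs.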

Other observations

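A list of 5 contigs of other hormone pathways was kept beside the phosphorelay, of which 2 were tested in each PB217 comparison. CL10836Contig1, matching the auxin transport protein BIG, fell to 4.82 ± 0.920 CPM in PB217 trees without ethephon at month 36, against 14.4 ± 5.17 CPM at month 1 (SD, n = 3 each; log2 fold change -1.54, adjusted p = 0.00096, edgeR's quasi-likelihood test). That comparison called 35.3% of 27884 contigs. The ethephon response of CL10836Contig1 differed between months by 1.85 on the log2 scale (adjusted p = 0.0351, edgeR's quasi-likelihood test), in a test that called 6.58% of 30609 contigs. CL10504Contig2, matching a chitin-inducible gibberellin-responsive protein, averaged 2.98 ± 1.35 CPM in PB217 TPD trees and 4.42 ± 1.61 CPM in trees without ethephon at month 36, and it passed no test in PB217. In PB260 it stood at 2.50 ± 0.227 CPM in slight TPD trees given ethephon and 5.24 ± 1.21 CPM in controls.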
